A study of Homo sapiens with 9 samples.

Results

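Genes that set whether a cell dies by apoptosis were examined in MDA-MB-231, a long-established line of human breast cancer cells of the triple-negative type, after knockdown of AHR, the ligand-activated aryl hydrocarbon receptor. The group was chosen by gene symbol, with earlier results of these data known. It holds 44 of the 60649 genes in the count table. These are the BCL2 family, the upstream and some further caspases, the inhibitor of apoptosis proteins (IAPs), and the death receptors with their adaptors. The design asked what loss of AHR does to these cells, using 9 RNA sequencing libraries in 3 groups of 3 replicates. The control group carried the vector pLKO-GFP (PLKO-GFP or GFP-PLKO in the labels), and the others carried a short hairpin RNA against AHR, named shAHR#2 or shAHR#3 in the labels. The paper's methods number the hairpins differently, so which target sequence belongs to which label cannot be told apart here. All 9 libraries carry the same treatment label, proliferation, and the methods describe lentiviral delivery with puromycin selection and pooling of the surviving cells, so a group is a pool and not a clone. Nothing says that replicates were separate cultures, so the p-values below measure only the spread between these libraries, which may be technical. A level in bulk RNA is also an average, in which a shift in the share of cells and a shift within each cell cannot be told apart.

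Apoptosis can be entered from outside or from inside the cell. In the extrinsic route, ligands of the tumor necrosis factor (TNF) family such as TRAIL bind death receptors, whose adaptors recruit CASP8 and CASP10, while CFLAR holds this step back. In the intrinsic route, BH3-only proteins release BAX and BAK1 from antiapoptotic BCL2 proteins, the pores so formed let cytochrome c out of mitochondria, and cytochrome c with APAF1 activates CASP9. IAPs restrain caspases and, with the TRAF adaptors, pass TNF receptor signals on to NF-kB. When CASP8 is not active, RIPK1, RIPK3 and MLKL can instead carry out necroptosis, a lytic death.

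Total counts ranged from 15991396 to 20374460 per library, so that 1 read was worth 0.0488 to 0.0642 CPM (counts scaled to library size, with edgeR's TMM correction for composition). AHR itself averaged 118 ± 3.32 (SD, n = 3) CPM in the control libraries, 41.6 ± 1.07 (SD, n = 3) in those of shAHR#2 and 47.7 ± 3.99 (SD, n = 3) in those of shAHR#3, and no library of either construct overlapped the controls (log2 fold change -1.5 and -1.31, adjusted p = 1.05e-25 and 4.95e-24). AHR was slightly higher with shAHR#3 than with shAHR#2 (0.19 on the log2 scale, adjusted p = 0.00283), a call that was lost without shAHR#3 replicate 2 (adjusted p = 0.0626). The epithelial label was met in part: the keratin genes KRT8, KRT18 and KRT19 averaged 284, 304 and 99.8 CPM in the controls. EPCAM stood at 6.62 and CDH1 at 0.909. Of the mesenchymal markers, VIM, an intermediate filament, averaged 2634 and the matrix protein FN1 814, while the cadherin CDH2 was at 0.351. PGR had no count in any library and ESR1 at most 4. Among 10 markers of other cell types, the T cell gene CD3E was at 0 in every library. The summed level of these 10 was 16.6 to 19.7 CPM in the controls, 30.8 to 31.0 with shAHR#2 and 44 to 47.2 with shAHR#3. PTPRC, a leukocyte phosphatase, averaged 0.119, 1.38 and 1.00 CPM in the 3 groups, a small part of that sum. Larger parts were PECAM1 (2.40, 11.2 and 12.2 CPM), COL1A1 (6.31, 10.0 and 11.3) and PDGFRB (8.20, 4.62 and 18.3). The part of such markers in the results below was not tested.

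Of the 44 members, 41 passed edgeR's filter on low counts and were tested among 14274 genes with its quasi-likelihood test, calling a gene at a Benjamini-Hochberg adjusted p under 0.05. With shAHR#2, 33 of the 41 were called against pLKO-GFP, beside 65.8% of all genes tested. They comprised 19 that rose and 14 that fell, where 32.6% of all genes tested rose and 33.2% fell. With shAHR#3, 27 were called (54.4% of all genes), with 17 that rose and 10 that fell (26.9% and 27.5% of all genes). The median log2 fold change of the 41 was 0.23 with shAHR#2 and 0.09 with shAHR#3, beside -0.0032 and -6.88e-05 over the 14274 genes. Most changes were modest: 17 of the 33 calls with shAHR#2 and 17 of the 27 with shAHR#3 had an absolute log2 fold change under 0.5, and 5 and 3 reached 1. Both comparisons share the pLKO-GFP libraries, so the constructs' values are set side by side and are not independent of each other. BCL2A1, BIK and TNFRSF10C reached the filter's level of 0.516 CPM in every library of 1 group only, and CASP1 in scattered libraries. Without these 4, the counts were 17 that rose and 14 that fell of 37 with shAHR#2, and 15 and 10 with shAHR#3, and the median log2 fold changes were 0.18 and 0.033.

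**Figure D1:**
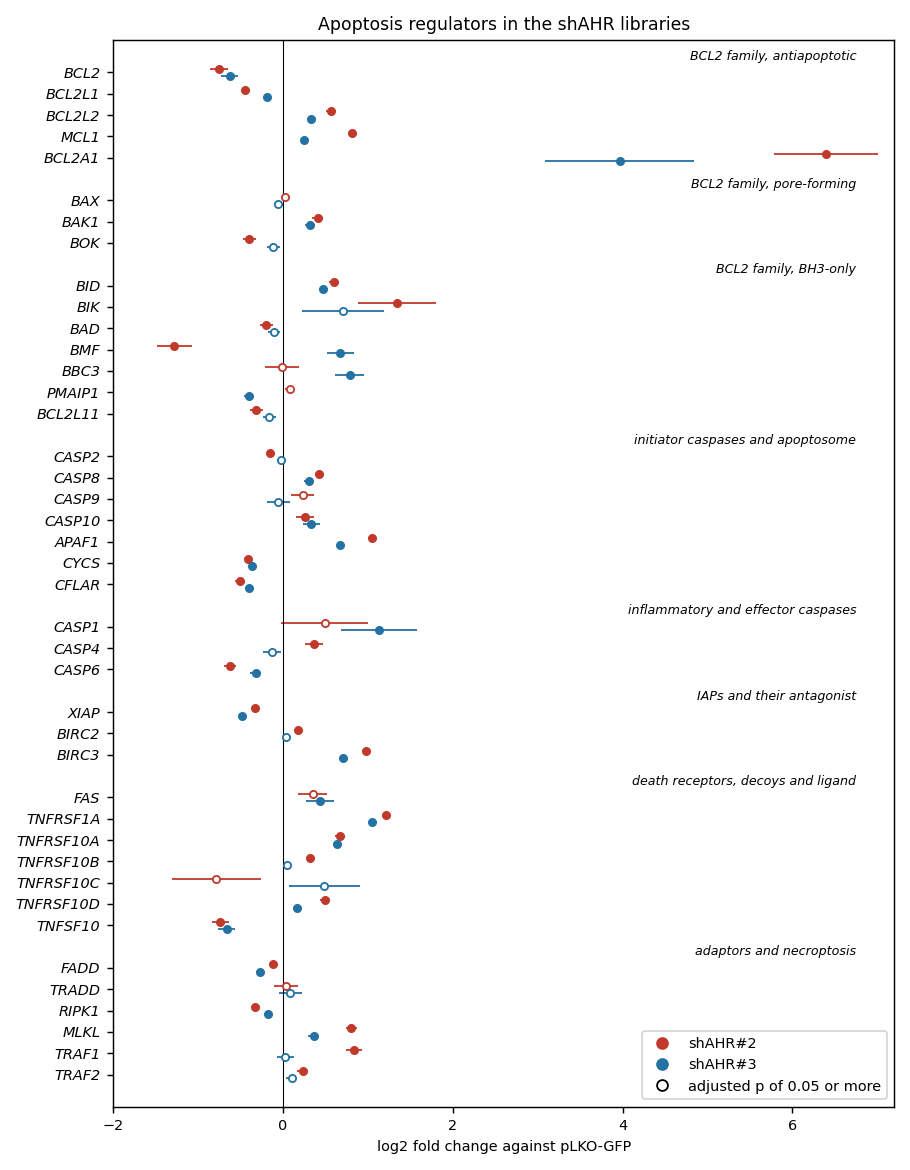
Log2 fold change against pLKO-GFP (horizontal axis) of the 41 tested members, grouped by class, with shAHR#2 in red and shAHR#3 in blue. Lines show 1 standard error and open circles an adjusted p of 0.05 or more. TNFRSF1A, BIRC3 and APAF1 lie to the right and CFLAR, TNFSF10 and BCL2 to the left with both constructs, and the far points of BCL2A1 rest on control libraries with 0 or 1 count, so their position is set by the fit and is no bound.

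Among the death receptors that are members, the TNF receptor TNFRSF1A rose most. The TRAIL receptor TNFRSF10A also rose with both constructs, while the ligand TRAIL itself (TNFSF10) fell. TNFRSF1A (chr12:6328757-6342114 on GRCh38, as are all positions below), the main receptor of soluble TNF, was counted at 132, 134 and 132 CPM in the pLKO-GFP libraries, 307, 311 and 303 in the shAHR#2 libraries and 267, 269.6 and 285 in the shAHR#3 libraries. All 6 knockdown libraries lay above all controls, with a rise of 2.32-fold with shAHR#2 (log2 1.21, standard error 0.03, adjusted p = 4.81e-29) and 2.07-fold with shAHR#3 (log2 1.05, standard error 0.03, adjusted p = 1.52e-26). Its ligand gene TNF had no count in any of the 9 libraries, which allows up to 3 counts or 0.193 CPM in the shallowest. TNFRSF10A, a TRAIL receptor with a death domain, stood at 37.9, 37.1 and 37.4 CPM in the controls, 59.4, 55.7 and 63.6 with shAHR#2 and 57.8, 60.4 and 57.1 with shAHR#3. The groups of the constructs overlapped each other but not the controls (log2 0.67 and 0.64, standard error 0.05 and 0.05, adjusted p = 4.72e-14 and 1.92e-13). TNFSF10 (chr3:172505508-172523475) fell from 16, 15.6 and 13.7 CPM in the controls to 8.96, 10.3 and 7.97 with shAHR#2 and 9.00, 9.62 and 9.96 with shAHR#3. No knockdown library reached the lowest control, and the log2 fold changes were -0.74 and -0.66 (standard error 0.10 and 0.10, adjusted p = 6.99e-08 and 3.91e-07).

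The remaining TRAIL receptors and FAS moved less. TNFRSF10D, a decoy that binds TRAIL without passing on a full death signal, was at 42.0, 42.1 and 46.3 CPM with pLKO-GFP, 66.7, 57.0 and 59.7 with shAHR#2 and 48.9, 51.3 and 46.6 with shAHR#3. It rose with shAHR#2 (log2 0.50, adjusted p = 7.50e-10). With shAHR#3 its rise of 0.17 (adjusted p = 0.0109) was lost without pLKO-GFP replicate 1 or 2 or shAHR#3 replicate 2 (adjusted p from 0.0534 to 0.0697), and the lowest shAHR#3 library, at 46.6 CPM, stood next to the highest control, at 46.3. TNFRSF10B, the TRAIL receptor with the highest level per kilobase of exon among the 4 in these cells, rose with shAHR#2 (log2 0.32, adjusted p = 9.51e-12) and had a log2 value of 0.04 with shAHR#3 (adjusted p = 0.226). The difference between the constructs was itself called (log2 -0.27, adjusted p = 9.87e-10). FAS, the receptor of FAS ligand, averaged 3.40 ± 0.387 (SD, n = 3) CPM in the controls, 4.35 ± 0.364 (SD, n = 3) in the shAHR#2 group and 4.61 ± 0.944 (SD, n = 3) in the shAHR#3 group. Its rise with shAHR#3 (log2 0.44, adjusted p = 0.0244) was lost in DESeq2 (adjusted p = 0.0620) and without either of pLKO-GFP replicates 1 and 2 or shAHR#3 replicates 1 and 3 (0.0517 to 0.201). With shAHR#2 it was not called (log2 0.35, adjusted p = 0.0755) except without pLKO-GFP replicate 3 (0.0488).

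TNFRSF10C, a decoy receptor anchored in the membrane without a death domain, was near the limit of counting, with 8 reads in each control library, 3 to 5 with shAHR#2 and 11 or 12 with shAHR#3. These are 0.452, 0.399 and 0.405 CPM with pLKO-GFP, 0.215, 0.193 and 0.316 with shAHR#2 and 0.566, 0.614 and 0.586 with shAHR#3. TNFRSF10C was not called with either construct (log2 -0.78 and 0.49, adjusted p = 0.194 and 0.342), although no library of any group overlapped another group. In the annotation 16.9% of its exon bases lie under another gene of the same strand, ENSG00000284948, which had 10 to 33 reads per library, so its reads may be split.

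**Figure D2:**
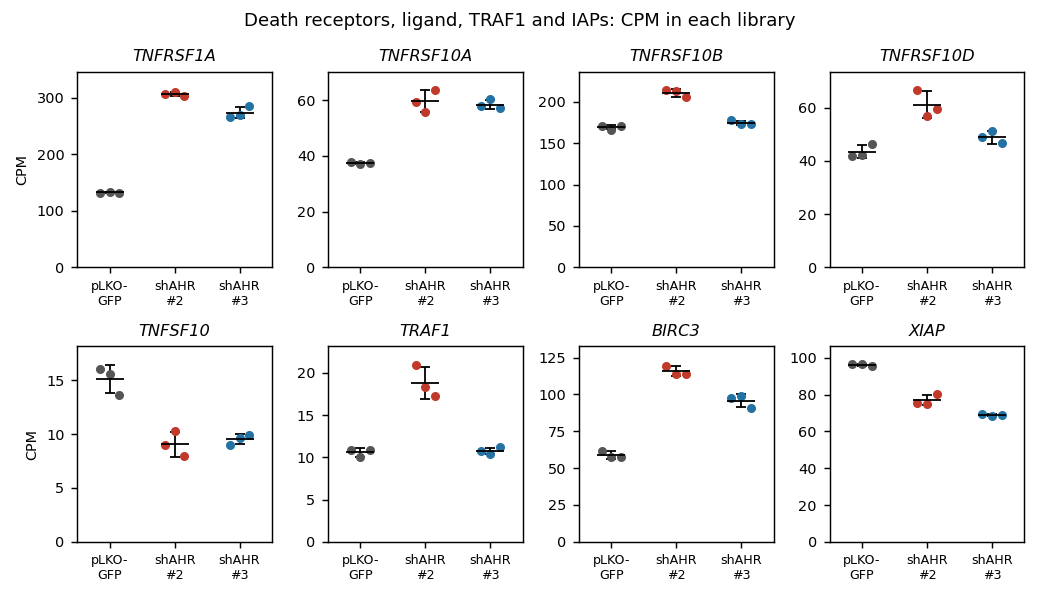
CPM (vertical axis, from 0) of 4 death receptors, the ligand TNFSF10, the adaptor TRAF1 and the IAP genes BIRC3 and XIAP in each of the 9 libraries. Each point is a library, the long bar is the mean of 3 and the whiskers are 1 SD. TNFRSF1A and BIRC3 are above every control in both constructs, TNFSF10 and XIAP are below, and TRAF1 is raised with shAHR#2 at 17.2 to 20.9 CPM while shAHR#3 stays between 10.4 and 11.2.

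The next genes encode adaptors that couple these receptors to caspases or to NF-kB. Of the 6 tested in the class of adaptors and necroptosis genes, 3 rose and 2 fell with shAHR#2 (32.6% and 33.2% of all genes tested), and 1 rose and 2 fell with shAHR#3 (26.9% and 27.5% of all genes). TRAF1 (chr9:120902393-120929173), an adaptor of TNF receptors that is itself an NF-kB target gene, was at 10.9, 9.99 and 10.8 CPM in the controls, 20.9, 18.3 and 17.2 with shAHR#2 and 10.7, 10.4 and 11.2 with shAHR#3. It rose 1.78-fold with shAHR#2 (log2 0.84, standard error 0.09, adjusted p = 3.49e-10). The shAHR#3 libraries overlapped the controls (log2 0.03, adjusted p = 0.824), and the constructs differed by -0.81 on the log2 scale (adjusted p = 1.92e-09). TRAF2, the adaptor that brings the cellular IAPs to the receptor, rose a little with shAHR#2 (log2 0.23, adjusted p = 0.00288). With shAHR#3 it was not called (log2 0.10, adjusted p = 0.194) unless shAHR#3 replicate 1 was left out (adjusted p = 0.0307). TRADD, which docks on TNFRSF1A, averaged 5.67 ± 0.493 (SD, n = 3), 5.79 ± 0.415 (SD, n = 3) and 6.01 ± 1.22 (SD, n = 3) CPM and was not called in either comparison (adjusted p = 0.846 and 0.617).

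FADD, the death-domain adaptor that binds CASP8 (chr11:70203296-70207390), was at 62.1, 63.9 and 61.7 CPM with pLKO-GFP, 60.4, 55.4 and 56.9 with shAHR#2 and 50.6, 51.4 and 54.0 with shAHR#3. The groups did not overlap, and FADD fell with shAHR#3 (log2 -0.27, standard error 0.05, adjusted p = 6.09e-06). The smaller fall with shAHR#2 (log2 -0.12, adjusted p = 0.0259) was lost in DESeq2 (adjusted p = 0.0663) and without pLKO-GFP replicate 2 or shAHR#2 replicates 2 or 3 (0.0833 to 0.144). An antisense transcript, ENSG00000254721, covers 59.2% of FADD's exon bases but had only 1 to 12 reads per library. RIPK1 (chr6:3063824-3115187), the kinase at the branch between survival, apoptosis and necroptosis, was at 70.0, 75.5 and 70.8 CPM in the controls, 59.2, 57.5 and 55.9 with shAHR#2 and 66.4, 60.2 and 64.5 with shAHR#3. All knockdown libraries lay below all controls, and RIPK1 fell with both constructs (log2 -0.32 and -0.18, standard error 0.05 and 0.04, adjusted p = 1.21e-07 and 0.000827). MLKL (chr16:74671855-74700960), the pore-forming executioner of necroptosis, went the other way, from 20.6, 21.0 and 21.3 CPM in the controls to 35.1, 37.7 and 37.1 with shAHR#2 and 26.7, 27.2 and 26.9 with shAHR#3. The 3 groups did not overlap, and the rise was 1.75-fold with shAHR#2 and 1.28-fold with shAHR#3 (log2 0.80 and 0.36, standard error 0.06 and 0.07, adjusted p = 1.07e-13 and 1.38e-05). RIPK3, the kinase that phosphorylates MLKL, did not pass the filter. It had 0 or 1 read in each control library, 1 to 4 with shAHR#2 and 1 to 8 with shAHR#3, too few to be tested with that filter.

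At the step that the death receptors start, CASP8 rose while CFLAR, its brake, fell. CFLAR (ENSG00000003402.20, chr2:201116154-201176687), a caspase-like protein without catalytic activity that competes with CASP8 at FADD, was at 63.6, 65.3 and 65.4 CPM in the controls, 44.4, 46.3 and 46.1 with shAHR#2 and 46.3, 48.3 and 53 with shAHR#3. Every knockdown library lay below every control, and the constructs overlapped each other (log2 -0.51 with shAHR#2, standard error 0.05, adjusted p = 2.65e-11, and -0.40 with shAHR#3, standard error 0.05, adjusted p = 7.81e-09). CASP8 (chr2:201233443-201361836), the initiator caspase of the extrinsic route, was at 33.6, 33.1 and 33.3 CPM in the controls, 47.5, 43.3 and 43.5 with shAHR#2 and 42.6, 41.2 and 39.4 with shAHR#3. It rose 1.35-fold and 1.23-fold (log2 0.43 and 0.30, standard error 0.06 and 0.06, adjusted p = 2.58e-08 and 2.07e-05). CASP10, its closest relative, averaged 8.73 ± 0.680 (SD, n = 3), 10.5 ± 0.263 (SD, n = 3) and 11 ± 0.727 (SD, n = 3) CPM in the 3 groups. It rose with shAHR#3 (log2 0.33, adjusted p = 0.00501). With shAHR#2 the rise (log2 0.26, adjusted p = 0.0265) was lost in DESeq2, with no filter on low counts and without pLKO-GFP replicates 1 or 2 or shAHR#2 replicates 1 or 2 (adjusted p from 0.0562 to 0.100). CFLAR, CASP10 and CASP8 lie in this order on the same strand of chromosome 2, with 6.18 kb between the first pair and 4.01 kb between the second.

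Downstream of mitochondria, the scaffold of the apoptosome rose while cytochrome c fell. APAF1 (chr12:98645290-98735433), the scaffold on which CASP9 is activated, was at 50.8, 54.4 and 54.7 CPM with pLKO-GFP, 112, 111 and 107 with shAHR#2 and 87.1, 85.7 and 82.7 with shAHR#3. The groups did not overlap, and APAF1 rose 2.06-fold with shAHR#2 and 1.60-fold with shAHR#3 (log2 1.04 and 0.67, standard error 0.04 and 0.04, adjusted p = 8.09e-23 and 1.73e-16). CYCS (chr7:25118656-25125260), which encodes cytochrome c, an electron carrier of the respiratory chain, fell from 326, 338 and 329 CPM in the controls to 256, 252 and 239.5 with shAHR#2 and 259, 269.7 and 241 with shAHR#3. The constructs overlapped each other but not the controls (log2 -0.41 and -0.37, standard error 0.03 and 0.03, adjusted p = 7.86e-14 and 1.87e-12). CASP9, the caspase bound by APAF1, was not called with either construct (log2 0.23 and -0.05, adjusted p = 0.127 and 0.763). CASP2, an initiator caspase activated on a separate scaffold, fell with shAHR#2 (log2 -0.15, adjusted p = 0.00210) and was not called with shAHR#3 (log2 -0.03, adjusted p = 0.598).

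Of the caspases that act later or in inflammation, CASP6 fell with both constructs. CASP6 (chr4:109688622-109703583), an effector caspase known for cleaving lamins, was at 33.0, 31.5 and 32.3 CPM in the controls, 19.6, 21.3 and 22.0 with shAHR#2 and 27.0, 25.7 and 24.8 with shAHR#3. The 3 groups were separate, with the shAHR#3 libraries between the others (log2 -0.63 and -0.32, standard error 0.07 and 0.06, adjusted p = 3.89e-10 and 6.18e-05). The gene MCUB on the opposite strand covers 5.04% of its exon bases and had 961 to 1071 reads in the controls, 498 to 638 with shAHR#2 and 814 to 859 with shAHR#3. Its part in the fall of CASP6 was not tested. CASP4 (chr11:104942866-104969366), the sensor of lipopolysaccharide inside cells, was at 10.8, 10.4 and 8.76 CPM in the controls, 14.8, 11.9 and 11.6 with shAHR#2 and 9.00, 8.75 and 9.57 with shAHR#3. The shAHR#2 libraries lay above the others, which overlapped. With shAHR#2 CASP4 rose (log2 0.37, standard error 0.11, adjusted p = 0.00269), a call that rested on shAHR#2 replicate 1 at 14.8 CPM (log2 0.25, adjusted p = 0.0659 without it), and with shAHR#3 it was not called (log2 -0.13, adjusted p = 0.336). CASP1 (chr11:105025397-105035250), the inflammasome caspase, had 5 to 12 reads in the controls, 7 to 11 with shAHR#2 and 8 to 26 with shAHR#3. It stood at 0.282, 0.599 and 0.253 CPM in the controls, 0.590, 0.449 and 0.569 with shAHR#2 and 0.823, 1.33 and 0.391 with shAHR#3, and all 3 groups overlapped. The rise with shAHR#3 (log2 1.13, standard error 0.45, adjusted p = 0.0324) was lost in DESeq2 (0.0760) and without pLKO-GFP replicates 1 or 3 or shAHR#3 replicates 1 or 2 (log2 0.65 to 1.15, adjusted p from 0.0587 to 0.311), and with shAHR#2 CASP1 was not called (log2 0.49, adjusted p = 0.406).

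**Figure D3:**
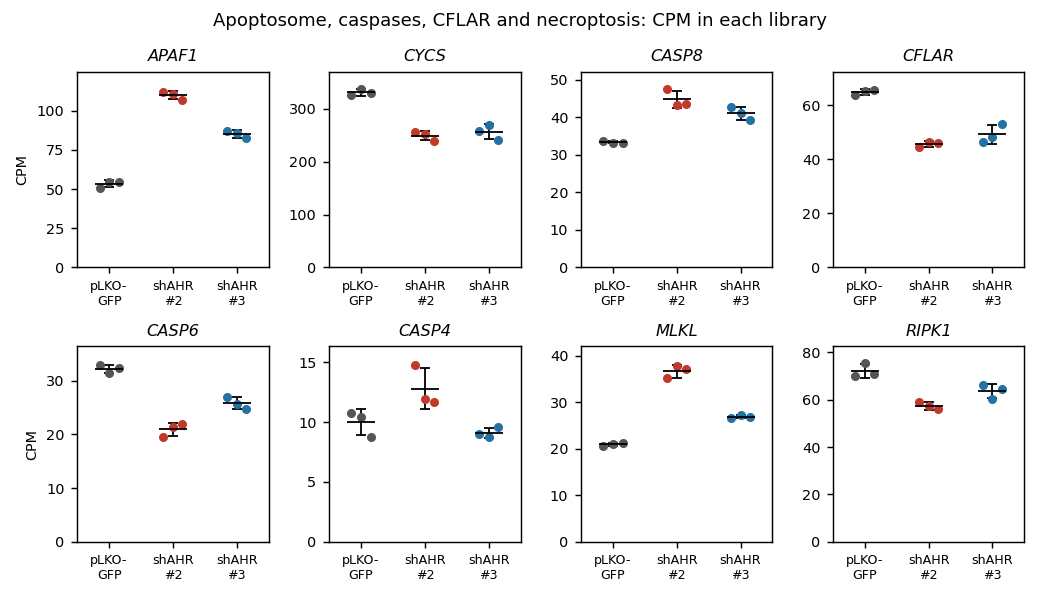
CPM (vertical axis, from 0) of APAF1, CYCS, CASP8, CFLAR, CASP6, CASP4, MLKL and RIPK1 in each library. Points are libraries, long bars means of 3 and whiskers 1 SD. APAF1, CASP8 and MLKL are above the controls and CYCS, CFLAR, CASP6 and RIPK1 below them with both constructs, while CASP4 is high in 1 shAHR#2 library at 14.8 CPM.

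Of the 3 member IAP genes tested, BIRC3 rose and XIAP fell with both constructs. BIRC3 (ENSG00000023445.16, chr11:102317484-102339403), a ubiquitin ligase of TNF receptor complexes and an NF-kB target gene, was at 61.9, 57.7 and 57.2 CPM with pLKO-GFP, 119.5, 114 and 113 with shAHR#2 and 97.8, 98.8 and 90.7 with shAHR#3. The groups did not overlap, and BIRC3 rose 1.97-fold with shAHR#2 (log2 0.97, standard error 0.04, adjusted p = 1.45e-21) and 1.63-fold with shAHR#3 (log2 0.70, standard error 0.04, adjusted p = 8.94e-17). Its neighbour BIRC2, 7.81 kb further along the same strand of chromosome 11, encodes the closely related cellular IAP. BIRC2 (chr11:102347211-102378670) was at 203, 203 and 194 CPM in the controls, 225, 231 and 223 with shAHR#2 and 204, 211 and 198 with shAHR#3. It rose by a small step with shAHR#2 (log2 0.18, standard error 0.03, adjusted p = 4.68e-06) and overlapped the controls with shAHR#3 (log2 0.03, adjusted p = 0.377). XIAP (chrX:123859712-123913972), which inhibits caspases directly, was at 96.8, 96.7 and 95.8 CPM in the controls, 75.6, 75.2 and 80.2 with shAHR#2 and 69.3, 68.3 and 69.1 with shAHR#3. All knockdown libraries were below all controls (log2 -0.32 and -0.48, standard error 0.04 and 0.04, adjusted p = 2.72e-09 and 1.78e-13). DIABLO, the mitochondrial antagonist of IAPs, had 0 to 10 reads per library and was not tested. In the annotation 31.5% and 16.4% of its exon bases are shared with 2 other genes of the same strand, ENSG00000284934 and ENSG00000256861, neither of which had a count, and the part of shared exons in these low counts was not tested.

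The promoters of BIRC3 and BCL2A1 are shown because these were the IAP and the antiapoptotic BCL2 gene with the largest rises. Each line gives the 250 bases before the RefSeq start on GRCh38.p14, on the strand of the gene, with motif matches in capitals.
BIRC3, chr11:102317234-102317483, plus strand: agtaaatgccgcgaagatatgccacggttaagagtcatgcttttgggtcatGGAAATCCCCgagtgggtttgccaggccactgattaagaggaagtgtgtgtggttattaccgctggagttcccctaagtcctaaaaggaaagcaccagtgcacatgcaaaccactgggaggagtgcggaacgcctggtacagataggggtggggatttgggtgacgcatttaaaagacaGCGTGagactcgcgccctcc
BCL2A1, chr15:79971197-79971446, minus strand: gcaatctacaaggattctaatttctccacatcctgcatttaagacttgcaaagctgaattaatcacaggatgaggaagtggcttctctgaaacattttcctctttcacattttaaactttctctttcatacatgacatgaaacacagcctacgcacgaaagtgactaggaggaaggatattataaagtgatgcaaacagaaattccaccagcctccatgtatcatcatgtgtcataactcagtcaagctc
The motifs searched on both strands were GCGTG, the core of the AHR response element, and a form of the kappaB site bound by NF-kB (3 G, any 2 bases, 3 T and 2 C in this order). In BIRC3 the capitals mark a kappaB form read on the minus strand, 199 bases before the start, and a GCGTG 20 bases before it, while the BCL2A1 stretch holds neither. RefSeq windows from 250 bases before to 50 after the start were found for 33 of the 44 members. GCGTG was in 25 of their 59 windows (42.4%), beside 36.5% of all 35116 windows, and the kappaB form in 1, that of BIRC3, beside 1.91% of all. A match describes the letters and is no evidence of binding.

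Of the 5 antiapoptotic BCL2 genes, MCL1, BCL2L2 and BCL2A1 rose, and BCL2 and BCL2L1 fell, with both constructs, where 65.8% of all genes tested were called with shAHR#2 and 54.4% with shAHR#3. BCL2A1 reached the filter's level only in the shAHR#2 libraries, where it was high. MCL1 (chr1:150560895-150579738), a short-lived protein that holds BAK1 and BIM in check, was at 339, 335 and 333 CPM in the controls, 599, 583 and 592 with shAHR#2 and 402, 408 and 385 with shAHR#3. The groups were separate, with a rise of 1.76-fold with shAHR#2 and 1.19-fold with shAHR#3 (log2 0.82 and 0.25, standard error 0.03 and 0.03, adjusted p = 1.51e-25 and 4.46e-10). BCL2A1 (chr15:79960892-79971196), an NF-kB target gene best known from blood cells, had 0, 1 and 0 reads in the controls, 32 to 35 with shAHR#2 and 6 to 9 with shAHR#3. The knockdown libraries stood at 1.82, 2.05 and 2.21 CPM with shAHR#2 and 0.309, 0.358 and 0.439 with shAHR#3, and no groups overlapped. Set against the floor of 3 counts per library, the level was at least 12.9-fold higher in the shAHR#2 libraries and at least 2.35-fold higher in those of shAHR#3 (adjusted p = 1.31e-11 and 0.000218). BCL2L2 (chr14:23298790-23311751), a close relative of BCL2L1, was at 36.9, 33.6 and 35.0 CPM in the controls, 50.3, 52.3 and 53.4 with shAHR#2 and 46.4, 44.2 and 42.1 with shAHR#3. It rose in every knockdown library (log2 0.56 and 0.33, standard error 0.05 and 0.05, adjusted p = 1.88e-11 and 2.73e-06), although 16.8% of its exon bases are shared with the readthrough gene BCL2L2-PABPN1, itself at 15 to 34 reads.

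BCL2 (chr18:63123346-63320128), the founding member of the family, was at 17.8, 15 and 16.4 CPM in the controls, 10.0, 10.0 and 8.92 with shAHR#2 and 10.3, 12.6 and 8.98 with shAHR#3. The knockdown libraries all lay below the controls, and BCL2 fell with both (log2 -0.76 and -0.63, standard error 0.11 and 0.10, adjusted p = 7.78e-08 and 1.93e-06). BCL2L1, which encodes the antiapoptotic protein BCL-XL, averaged 563 ± 11.1 (SD, n = 3) CPM in the controls, 413 ± 5.43 (SD, n = 3) in the shAHR#2 group and 495 ± 9.18 (SD, n = 3) in the shAHR#3 group. Its fall was clear of the spread with both (log2 -0.45 and -0.19, adjusted p = 6.96e-18 and 6.78e-08), while the antisense transcript ABALON, which covers 41.3% of its exon bases, had 30 to 84 reads beside 6433 to 11517 of BCL2L1. Per kilobase of exon, BCL2L1 had the highest level of the 44 members in every group, at 134, 98.4 and 118 CPM per kb, and MCL1 stood at 54.0, 95.1 and 64.0. By the length of the canonical transcript instead, BCL2L1 was again first and MCL1 had rank 2 or 3 in each group. On the exon scale TNFRSF1A moved from rank 7 in the controls (31.5 CPM per kb) to rank 3 with shAHR#2 (73.0) and rank 2 with shAHR#3 (65.1), where its distance from MCL1 was not tested.

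Of the pore-forming members, BAK1 rose with both constructs and BAX was called with neither. BAK1 (chr6:33572547-33580293) was at 31.1, 30.4 and 33.4 CPM in the controls, 41.5, 45.1 and 39.4 with shAHR#2 and 37.9, 40.3 and 40.3 with shAHR#3. All knockdown libraries exceeded all controls (log2 0.41 and 0.32, standard error 0.06 and 0.06, adjusted p = 2.90e-07 and 2.30e-05). BAX averaged 56.8 ± 4.17 (SD, n = 3), 58.1 ± 1.23 (SD, n = 3) and 54.6 ± 1.38 (SD, n = 3) CPM, with log2 values of 0.03 and -0.06 (adjusted p = 0.614 and 0.328). BOK (chr2:241551424-241574131), a relative of both that can act without BH3-only proteins, was at 22.6, 24.0 and 23.7 CPM in the controls, 18.2, 18.4 and 16.9 with shAHR#2 and 20.9, 20.7 and 23.4 with shAHR#3. It fell with shAHR#2 (log2 -0.40, standard error 0.08, adjusted p = 2.27e-05) and was not called with shAHR#3 (log2 -0.11, adjusted p = 0.190).

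Of the 7 BH3-only genes tested, sensors that trigger the intrinsic route, 2 rose and 3 fell with shAHR#2 (32.6% and 33.2% of all genes tested), and 3 rose and 1 fell with shAHR#3 (26.9% and 27.5%). The 2 that rose with shAHR#2 include BIK, which reached the filter's level in every library only in that group. BID (chr22:17734138-17774770), which CASP8 cleaves to link the extrinsic to the intrinsic route, rose with both: it was at 35.5, 33.8 and 33.6 CPM in the controls, 52.3, 53.2 and 49.9 with shAHR#2 and 50.2, 43.9 and 49.0 with shAHR#3. The constructs overlapped each other and lay above the controls (log2 0.60 and 0.48, standard error 0.06 and 0.06, adjusted p = 8.29e-12 and 2.68e-09). BMF (chr15:40087890-40108892), a sensor tethered to the actin cytoskeleton and tied to cell detachment, moved in opposite directions. It was at 3.05, 3.30 and 3.14 CPM in the controls, 1.18, 1.35 and 1.39 with shAHR#2 and 5.14, 4.81 and 5.22 with shAHR#3, or 54 to 66, 21 or 22 and 94 to 107 reads. The groups did not overlap: BMF fell with shAHR#2 (log2 -1.28, standard error 0.21, adjusted p = 1.62e-06) and rose with shAHR#3 (log2 0.68, standard error 0.16, adjusted p = 0.000383).

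BBC3 (chr19:47220822-47232766), known as PUMA and a p53 target gene, was at 2.32, 3.25 and 2.68 CPM in the controls, 2.47, 3.34 and 2.47 with shAHR#2 and 5.35, 4.61 and 4.35 with shAHR#3. It rose with shAHR#3 (log2 0.78, standard error 0.17, adjusted p = 0.000205) and overlapped the controls with shAHR#2 (log2 -0.01, adjusted p = 0.969). PMAIP1, known as NOXA, the partner and antagonist of MCL1, averaged 47.6 ± 0.993 (SD, n = 3) CPM in the controls, 50.2 ± 2.74 (SD, n = 3) in the shAHR#2 group and 36.0 ± 1.76 (SD, n = 3) in the shAHR#3 group. It fell with shAHR#3 (log2 -0.40, adjusted p = 5.57e-08) and not with shAHR#2 (log2 0.08, adjusted p = 0.193). BIK (chr22:43110750-43129712), a BH3-only protein of the endoplasmic reticulum, had 4 to 7 reads in the controls, 12 or 13 with shAHR#2 and 6 to 14 with shAHR#3. These are 0.395, 0.300 and 0.203 CPM in the controls, 0.697, 0.835 and 0.759 with shAHR#2 and 0.463, 0.307 and 0.684 with shAHR#3. With shAHR#2 its libraries lay above the controls (log2 1.34, standard error 0.46, adjusted p = 0.0104), a call lost without pLKO-GFP replicate 3 (adjusted p = 0.0580). With shAHR#3 it was not called (log2 0.71, adjusted p = 0.225), nor was the difference between the constructs (adjusted p = 0.225).

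BCL2L11, known as BIM, which binds all antiapoptotic relatives, fell with shAHR#2 (log2 -0.31, adjusted p = 0.000404). With shAHR#3 its log2 value was -0.16 (adjusted p = 0.0601, and 0.0362 without shAHR#3 replicate 2). The long noncoding RNA gene MIR4435-2HG lies on the opposite strand over 10.8% of its exon bases and had 1324 to 1516 reads in the controls, 643 to 820 with shAHR#2 and 1139 to 1393 with shAHR#3. Its part in the values of BCL2L11 was not tested. BAD, which growth factor kinases keep inactive, fell slightly with shAHR#2 (log2 -0.19, adjusted p = 0.0188), and the call was lost without pLKO-GFP replicates 2 or 3 or shAHR#2 replicate 1 (adjusted p from 0.0887 to 0.181). With shAHR#3 it was not called (log2 -0.10, adjusted p = 0.219) unless pLKO-GFP replicate 1 was left out (0.0426), and 23.7% of its exon bases lie opposite GPR137. HRK, the last of this class, had 0 to 2 reads in every library and was not tested.

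**Figure D4:**
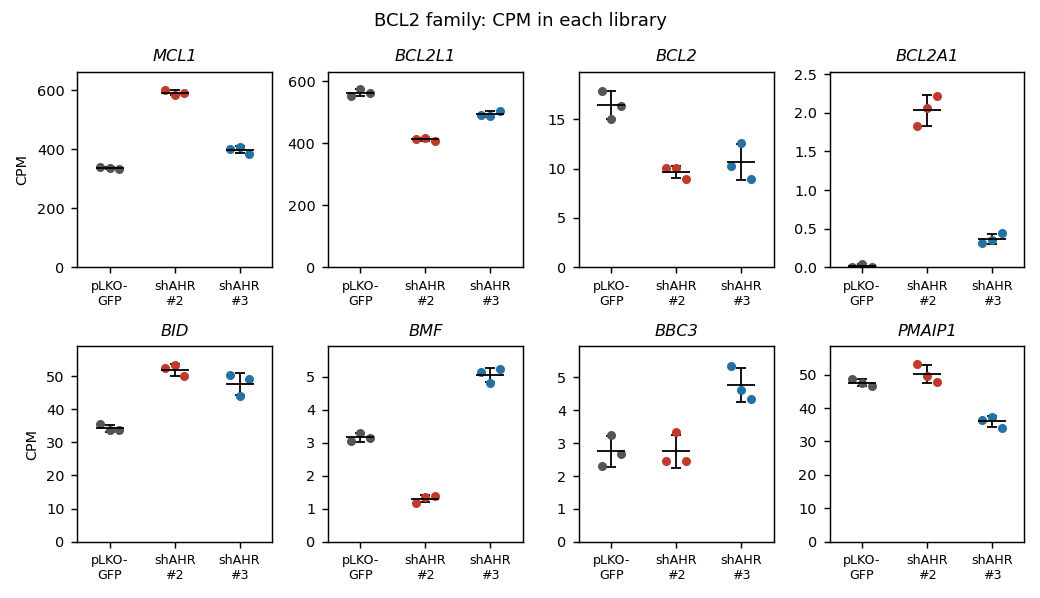
CPM (vertical axis, from 0) of 4 antiapoptotic (top) and 4 BH3-only (bottom) genes of the BCL2 family in each library. Points are libraries, long bars means of 3 and whiskers 1 SD. MCL1 and BCL2A1 rise and BCL2 and BCL2L1 fall in both constructs, and BMF is low with shAHR#2 at 1.18 to 1.39 CPM but high with shAHR#3 at 4.81 to 5.22.

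The constructs were then compared with each other. Of the 41 members tested, 23 differed between shAHR#3 and shAHR#2, beside 42.3% of all genes tested. Of these, 8 were higher and 15 lower with shAHR#3, where 21.9% and 20.4% of all genes tested were, and the median log2 difference was -0.09 among members and 0.0068 among all. Without the 4 members near the filter's level the counts were 7 higher and 14 lower of 37. Genes that were lower with shAHR#3 included MCL1 (log2 -0.57, adjusted p = 3.91e-20), TRAF1, CASP4 (-0.50, 0.000225), PMAIP1 (-0.48, 2.40e-09) and MLKL (-0.44, 1.90e-07). APAF1 (-0.37, 4.21e-10), TNFRSF10D (-0.33, 5.86e-06), TNFRSF10B, BIRC3 (-0.27, 4.43e-07), BCL2L2 (-0.23, 0.000450), TNFRSF1A (-0.17, 8.65e-06), XIAP (-0.16, 0.00127) and BIRC2 (-0.14, 0.000194) differed by less. Higher with shAHR#3 were BMF (1.95, 8.47e-11), BBC3 (0.79, 0.000371), CASP6 (0.30, 0.000546), BOK (0.28, 0.00262) and BCL2L1 (0.26, 7.85e-11). All 3 member IAP genes tested were lower with shAHR#3 than with shAHR#2. The call of CASP2 was lost in DESeq2 (adjusted p = 0.0547). Calls that were lost when a library was left out were those of CASP2 (shAHR#2 replicate 3), FADD (shAHR#2 replicate 1, shAHR#3 replicate 1), RIPK1 (shAHR#2 replicate 3, shAHR#3 replicate 1) and TNFRSF10C (any of the 6 knockdown libraries except shAHR#2 replicate 3). CFLAR, TNFSF10, TNFRSF10A, BCL2, CASP8, CYCS, BID and BAK1 were not called between the constructs, with log2 differences from -0.13 to 0.13 (adjusted p from 0.0587 for CASP8 to 0.683 for TNFRSF10A). CASP8 was called with DESeq2's size factors in edgeR (adjusted p = 0.0484). Leaving out shAHR#3 replicate 1 called CFLAR (adjusted p = 0.0242), CASP8 (0.0468), BID (0.0377) and BCL2L11 (0.0472), leaving out shAHR#3 replicate 2 called CASP9 (0.0491), and leaving out shAHR#3 replicate 3 called CYCS (0.0231).

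Other genes of the same pathways were read from lists of general knowledge, chosen with earlier results of these data known. They are to be read beside the 32.6% of all genes tested that rose and 33.2% that fell with shAHR#2, and the 26.9% and 27.5% with shAHR#3. Of 29 further genes of the apoptosis machinery, 22 were tested, and 8 rose and 8 fell with shAHR#2 (36.4% and 36.4%) and 7 and 8 with shAHR#3 (31.8% and 36.4%). BNIP3 and BNIP3L, mitochondrial receptors of mitophagy, led the rises with shAHR#2 (log2 1.14 and 0.86, adjusted p = 3.26e-25 and 6.47e-22), and ENDOG, a mitochondrial nuclease, the falls (log2 -0.82, adjusted p = 2.73e-06). With shAHR#3 the cochaperone BAG1 (log2 0.47, adjusted p = 6.50e-12) and BNIP3L (0.38, 3.09e-11) led the rises, and ENDOG (-0.40, 0.00782), AVEN (-0.40, 0.000213) and AIFM1 (-0.38, 2.13e-07) the falls. Of 31 further genes of TNF receptor signalling 25 were tested, with 8 that rose and 9 that fell with shAHR#2 (32% and 36%) and 8 and 6 with shAHR#3 (32% and 24%), shares close to those of all genes. MAP3K14 is the kinase of the noncanonical NF-kB route whose protein BIRC2, BIRC3 and TRAF2 keep low. Its RNA, the only level measured here, rose with both constructs (log2 0.65 and 0.98, adjusted p = 4.43e-12 and 2.31e-17). The stress kinase gene MAP3K5 also rose with both (log2 0.95 and 0.82, adjusted p = 1.52e-16 and 1.64e-14). TNFRSF25, a death receptor outside the members, rose more than TNFRSF1A with shAHR#2 (log2 1.46, adjusted p = 0.000146). It had 10 to 19 reads in the controls and 30 to 34 with shAHR#2, and was not called with shAHR#3 (log2 0.77, adjusted p = 0.0522). TNFSF12, which encodes the ligand TWEAK, fell with both (log2 -0.99 and -0.51, adjusted p = 1.63e-07 and 0.00113). TNFAIP3, an NF-kB target gene that in turn restrains NF-kB, rose with shAHR#2 and fell with shAHR#3 (log2 0.61 and -0.49, adjusted p = 3.19e-06 and 0.000432). The ligand genes LTA and LTB had at most 5 reads in any library and FASLG at most 11.

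Of 20 p53 target genes outside the members, all were tested, with 7 that rose and 9 that fell with shAHR#2 and 7 and 4 with shAHR#3. The share called was 80% with shAHR#2 and 55% with shAHR#3, beside 65.8% and 54.4% of all genes tested. CDKN1A, a cell cycle inhibitor, rose with both (log2 0.81 and 0.59, adjusted p = 7.21e-14 and 4.89e-10) and DDB2, a DNA damage sensor, fell with both (log2 -1.24 and -0.63, adjusted p = 8.26e-13 and 7.23e-07). PHLDA3, an inhibitor of AKT, fell most with shAHR#2 (log2 -1.91, adjusted p = 3.30e-12). Of the 10 epithelial and mesenchymal markers 7 were tested, and 4 rose with shAHR#2 and 6 with shAHR#3 with none that fell, where 32.6% and 26.9% of all genes tested rose. FN1, a matrix protein, rose with both (log2 1.56 and 1.07, adjusted p = 1.94e-35 and 1.04e-29), as did CDH1, the epithelial cadherin (log2 1.00 and 2.19, adjusted p = 0.00165 and 2.47e-10). Of the 10 markers of other cell types 6 were tested, against the same shares. With shAHR#2, 4 rose, led by PTPRC and LYZ (log2 3.45 and 2.46, adjusted p = 2.63e-07 and 2.75e-09), and CD14 (-1.40, 0.00348) and PDGFRB (-0.83, 2.06e-07) fell. With shAHR#3, 5 rose, led by PTPRC and PECAM1 (log2 2.98 and 2.35, adjusted p = 1.05e-05 and 1.20e-17). Among these 5 was PDGFRB (1.16, 2.47e-13), which had fallen with shAHR#2. Several of these markers had few reads: PTPRC 1 to 4 in the controls, 14 to 33 with shAHR#2 and 14 to 30 with shAHR#3. LYZ had 8 to 13 in the controls, and CD14 4 to 8 with shAHR#2. The control mean of PTPRC, 0.119 CPM, lay below the filter's level of 0.516 CPM. Its entry to the test therefore depended on the knockdown groups, where it was higher.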

How the data were processed

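The 9 libraries were grouped by the labels (pLKO-GFP, shAHR#2, shAHR#3). The authors deposited raw read counts, 1 whole number per gene and library, not normalized. The submitters' processing notes name FastQC, STAR, featureCounts, Subread and GRCh38.p13, and the kit marks strand, but the strand setting and annotation release are not given in the sources used here. Overlapping and antisense genes may therefore share or lose reads. Reads carry no molecular identifiers, so floors (3 counts) cover counting error only.

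Genes were filtered with edgeR 4.0.16 (filterByExpr, minimum count 10, minimum total 15), scaled by TMM and tested with glmQLFit and glmQLFTest over all 9 libraries, with Benjamini-Hochberg adjustment over 14274 genes in R 4.3.3. The standard error is the log2 fold change divided by the square root of F. The study used DESeq2, which is an alternative here (version 1.42.0). Positions are those of GENCODE 44 on GRCh38, which matched 60463 of 60649 identifiers, and promoters those of RefSeq.

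Members and lists were chosen with earlier results of these data known. Values in every library are given for CFLAR, BIRC3 and up to 4 called members per class, ordered by the larger absolute log2 fold change, and for members differing between constructs by at least 1, which are also those set out for a closer look. In other lists up to 3 called genes per direction qualify. Further names (TNFAIP3 with shAHR#2, PDGFRB with shAHR#3, TNF, LTA, LTB, FASLG, CD3E, COL1A1 and the line's markers) were added after their values were seen. Some listed genes are counted but not reported here by name. Alternatives were DESeq2, its size factors in edgeR, no filter, a mean of at least 50 counts, only the groups compared, a replicate block and leaving out each library.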

Additional observations from a re-analysis of the deposited data

Results flagged for a closer look

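The members set out here are those whose levels differed between the constructs by at least 1 on the log2 scale in edgeR's test of shAHR#3 against shAHR#2. BMF differed by 1.95 (adjusted p = 8.47e-11), with 1.18 to 1.39 CPM in the shAHR#2 libraries, 3.05 to 3.30 in the controls and 4.81 to 5.22 in the shAHR#3 libraries, so that the constructs lay on opposite sides of pLKO-GFP. The call was kept in all 15 alternatives. BCL2A1 differed by -2.43 (adjusted p = 4.17e-07), with 32 to 35 reads with shAHR#2 and 6 to 9 with shAHR#3, both above the 0 or 1 read of the controls, and was kept in the 14 alternatives that tested it. TNFRSF10C differed by 1.27 (adjusted p = 0.0345) on 3 to 5 against 11 or 12 reads, and this call was lost in DESeq2 (adjusted p = 0.103), with no filter on low counts (0.0951) and without any of 5 knockdown libraries (0.0637 to 0.112). BCL2A1 reached the filter's level only in the shAHR#2 libraries and TNFRSF10C only in the shAHR#3 libraries, the group where each was high. Entry of each to the test therefore depended on the group with the higher level. The cause was not tested for any of the 3.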

How the results depend on the processing

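The counts of members called stayed within 1.5 times of the values above in every alternative: 17 to 19 that rose and 12 to 14 that fell with shAHR#2, 14 to 18 and 10 or 11 with shAHR#3, and 6 to 8 higher and 14 to 16 lower in shAHR#3 against shAHR#2. No called member changed direction. Of the calls, 28 of 33, 24 of 27 and 19 of 23 were kept in every alternative that could test them, and the lost ones are named above. The filter at a mean of 50 counts left out BCL2A1, BIK, CASP1 and TNFRSF10C, and the fits of only the groups compared left out TNFRSF10C with shAHR#2 and BCL2A1 and BIK with shAHR#3. With the replicate number as a replicate block, 19 members rose and 14 fell with shAHR#2, as without it, and the counts of the other comparisons were also unchanged (17 and 10 with shAHR#3, 8 and 15 between the constructs). Same-numbered libraries of different groups deviated together with a correlation of 0.0031 to 0.0578, and differently numbered ones with -0.068 to 0.0234. With 3 libraries per group and overlapping ranges, these small values cannot decide whether the numbers pair the libraries. Depth limits BCL2A1, BIK, CASP1 and TNFRSF10C, with under about 10 reads in some groups. HRK, DIABLO and RIPK3 were not tested with the filter on low counts. Without it all 44 members were tested, and 18 rose with shAHR#3, beside 17 of 41 with it. The added call fell among HRK, DIABLO and RIPK3, which have few reads.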
